A study of Mus musculus with 16 samples.

Results

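miR-140 and miR-455 are microRNAs known best from cartilage, and each hairpin gives 2 mature arms that were counted separately. The 4 arms, mmu-miR-140-5p, mmu-miR-140-3p, mmu-miR-455-5p and mmu-miR-455-3p (written below without the mouse prefix), were taken by name from a table of 1915 mature microRNAs, and all 4 were present. The material was extracellular vesicles (EVs) isolated from plasma of the bone marrow of C57BL/6N mice aged 6 months. Every mouse carried the CAGS-Snorkel reporter, and EVs were captured with magnetic beads through an antibody to the HA tag. In 6 libraries the second allele was Ocn-Cre, whose osteocalcin promoter is active in mature osteoblasts and in osteocytes (3 male and 3 female mice). In 10 libraries it was Prx1-Cre, active in early limb bud mesenchyme, from which chondrocytes and osteoblasts of the limbs descend (5 male and 5 female mice). The groups are called Ocn and Prx1 after the driver. Mice without Cre and plasma that was not passed over the beads were not analysed here, so the background of the capture is unknown.

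A microRNA hairpin is cut into a short duplex, and usually 1 strand of it, the guide, is loaded into an Argonaute protein while the other is degraded. The loaded strand pairs with target mRNAs mainly through its seed, bases 2 to 8, so the arms of a hairpin act on different targets. Mir140 is hosted by Wwp2 and is switched on in cartilage together with it by SOX9, the master regulator of chondrocytes. Mice without Mir140 have short limbs and lose articular cartilage early, and miR-140-5p restrains the cartilage protease ADAMTS5. Mir455 is hosted by Col27a1, a fibrillar collagen gene of cartilage, and its arms have been reported to restrain HIF-2 alpha in chondrocytes. The comparison asked whether EVs captured through a driver whose lineage includes limb chondrocytes differ in these arms from those captured through the osteoblast driver.

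Of the 4 arms, the mature sequences of 3 are shown, as RefSeq gives them for GRCm38 (mm10), because their seeds decide whether any other counted microRNA could share their targets. They are written 5′ to 3′ with the seed in capitals.
miR-140-3p: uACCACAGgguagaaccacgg
miR-455-5p: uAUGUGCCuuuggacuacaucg
miR-455-3p: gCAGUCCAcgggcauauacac
The 3 seeds differ from each other, so the arms of miR-455 do not belong to one seed family. miR-140-3p and miR-455-3p are 21 bases long with 57.1% G and C, and miR-455-5p is 22 bases long with 45.5%. Among the RefSeq mature microRNAs, which cover 1623 of the 1915 entries, the seed of miR-140-3p is shared by miR-497b alone, with 11 counts over all 16 libraries, and that of miR-455-5p by miR-5129-3p alone, with 4 counts. None of them shares the seed of miR-455-3p. If the counted reads start at the printed base, the counts of each of the 3 seeds among these entries thus came almost entirely from the named arm. How reads with shifted ends were counted is not stated, so the share of counts that carry the printed seed is unknown.
miR-497b: cACCACAGugugguuuggacgugg
miR-5129-3p: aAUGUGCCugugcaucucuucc

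In the GENCODE annotation of GRCm38, the Mir140 hairpin lies on chromosome 8 from 107551244 to 107551313 on the plus strand, inside the protein-coding gene Wwp2 (107436365 to 107558595, plus strand). Of the 11 annotated Wwp2 transcripts only 1, a retained-intron transcript, has an exon at this position, which is otherwise intronic. The Mir455 hairpin lies on chromosome 4 from 63256851 to 63256932 on the plus strand, in an intron of the protein-coding gene Col27a1 (63214004 to 63334991, plus strand), none of whose 7 transcripts has an exon there. miR-140-3p occupies 107551288 to 107551308 of chromosome 8. miR-455-5p and miR-455-3p occupy 63256867 to 63256888 and 63256904 to 63256924 of chromosome 4.

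Library totals ran from 582660 to 1536421 in the 6 Ocn libraries and from 225273 to 813770 in the 10 Prx1 libraries. Depth thus moved with the group, with mean log10 totals of 5.94 and 5.58 (SD 0.17 and 0.16). Marker microRNAs of other cell types were present beside the cartilage arms, and none of the 24 on 6 lists was at 0 in all libraries. Some of them, such as miR-199a-3p and miR-155-5p, have also been reported in chondrocytes or cartilage, so the lists do not exclude that source. Summed CPM (counts per 1e6 counts of the library) of 4 skeletal muscle markers ran from 46727 to 77413 in Ocn and from 39885 to 70774 in Prx1, led by miR-1a-3p. The 5 erythroid markers, led by miR-486a-5p, summed to 23947 to 43670 and 31874 to 47291 CPM in Ocn and Prx1, and the 5 leukocyte markers, led by miR-142a-3p, to 40238 to 95934 and 44090 to 72415 CPM. The 5 mesenchymal markers, led by miR-199a-3p, summed to 31426 to 43032 and 26518 to 34989 CPM, and the 2 endothelial ones, led by miR-126a-3p, to 16712 to 20837 and 12913 to 19289 CPM. The 3 liver markers, led by miR-192-5p, summed to 232 to 396 CPM in Ocn and 197 to 2005 CPM in Prx1. In Prx1 their sum averaged 439 ± 553 CPM (SD, n = 10). miR-192-5p alone was at 192 ± 57 CPM there, so it does not account for the upper end. The liver list was the only one that summed to less than the 4 cartilage arms. Those arms summed to 5366 to 6904 CPM in Ocn and 3781 to 11337 CPM in Prx1. In such bulk samples fewer vesicles of a cell type and less of a microRNA per vesicle cannot be told apart, and the arms studied here are not made by chondrocytes alone.

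The abundance of the 2 hairpins differed widely. miR-140-3p was among the abundant microRNAs, with 5164 ± 555 CPM (SD, n = 6) against 7213 ± 2335 CPM (SD, n = 10) in Ocn and Prx1, or rank 31 and rank 29 by mean CPM. miR-140-5p followed at 811 ± 215 and 557 ± 211 CPM. The arms of miR-455 were scarce, at 64.4 ± 22.2 and 59.1 ± 22.5 CPM for miR-455-3p and 31.1 ± 11.2 and 27.8 ± 13.4 CPM for miR-455-5p. The counts behind these values ran from 1133 to 9126 for miR-140-3p and from 115 to 1309 for miR-140-5p, but only from 9 to 124 for miR-455-3p and from 3 to 49 for miR-455-5p. The order miR-140-3p, miR-140-5p, miR-455-3p, miR-455-5p by mean CPM was the same in both groups. Values of the 2 arms of miR-455 overlapped within each group, and those of the miR-140 arms did not. In Ocn the overlap came from Ocn 3 alone, with 51.5 CPM of miR-455-5p and 22.3 CPM of miR-455-3p.

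**Figure D1:**
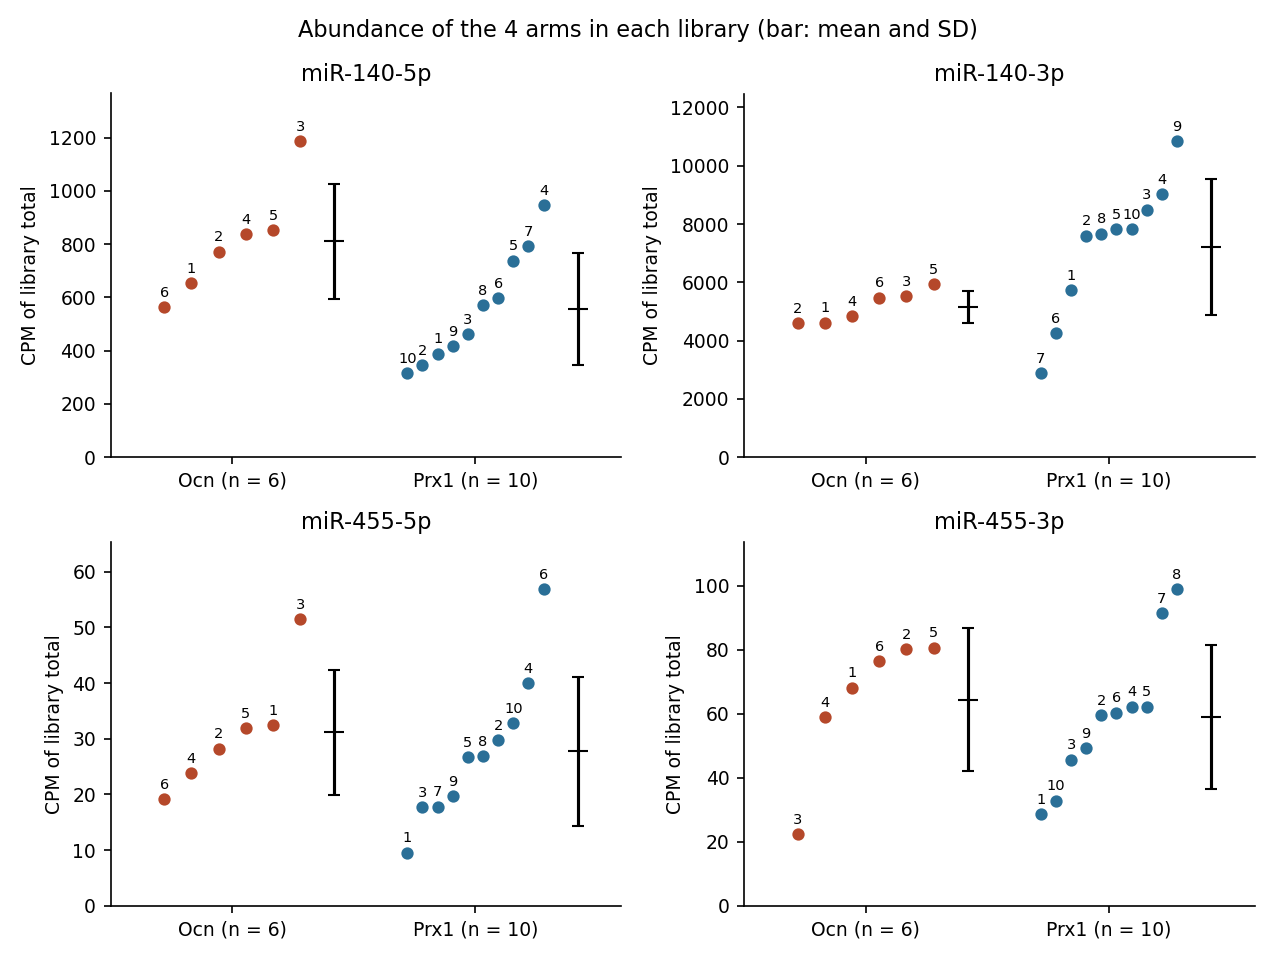
CPM of the library total (vertical axes, starting at 0) for each of the 4 arms in the 6 Ocn and 10 Prx1 libraries, ordered by value within a group and marked with the replicate number; bars give mean and SD. The groups overlap for every arm, 7 of 10 Prx1 libraries lie above all Ocn libraries for miR-140-3p, and Ocn 3 lies apart at 22.3 CPM for miR-455-3p.

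miR-140-3p, the abundant arm, was at 4612, 4603, 5514, 4845, 5940 and 5470 CPM in Ocn 1 to Ocn 6. In Prx1 its lowest value was 2879 CPM in Prx1 7, the median 7740 CPM and the highest 10852 CPM in Prx1 9. The Ocn libraries thus lay close together (SD of 10.7% of the mean), while Prx1 spread more widely (32.4%). All 6 Ocn libraries were below the Prx1 mean, and 7 of 10 Prx1 libraries were above every Ocn library. Prx1 1 lay inside the Ocn range at 5725 CPM, and Prx1 6 and Prx1 7 lay below it at 4248 and 2879 CPM. The log2 fold change of Ocn over Prx1 was -0.51 (SE 0.19, 95% interval -0.91 to -0.11), which missed the threshold of 0.05 (edgeR quasi-likelihood test, adjusted p = 0.0788, unadjusted p = 0.0145).

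miR-140-5p, the arm known to restrain ADAMTS5, pointed the other way. It was at 653, 771, 1188, 838, 852 and 564 CPM in Ocn 1 to Ocn 6. In Prx1 the lowest value was 314 CPM in Prx1 10, the median 516 CPM and the highest 946 CPM in Prx1 4. Every Ocn library was above the Prx1 mean, and 5 of 10 Prx1 libraries were below all Ocn libraries while the other 5 lay within the Ocn range. The log2 fold change was 0.50 (SE 0.21, 95% interval 0.07 to 0.94), again short of the threshold (edgeR adjusted p = 0.116, unadjusted p = 0.0244).

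Against the table as a whole, 0 of the 4 arms were called by edgeR, and 2 of the 4, both from miR-140, had an unadjusted p under 0.05. Of all 234 microRNAs tested, 32 were called, or 13.7%, split into 5.98% with more and 7.69% with less in Ocn. The share with an unadjusted p under 0.05 was 26.5%. DESeq2 and limma voom also called 0 of the 4, beside 42 and 34 of all 234. The median log2 fold change of the 4 arms was 0.13, beside 0.01 over all tested. Single libraries decided whether the arms of miR-140 passed. miR-140-3p passed without Prx1 6 (-0.58, edgeR adjusted p = 0.0436) and without Prx1 7 (-0.61, edgeR adjusted p = 0.00721), and miR-140-5p passed without Prx1 4 (0.61, edgeR adjusted p = 0.0473). With no filter on low counts miR-140-5p passed as well (0.59, edgeR adjusted p = 0.0116), in a fit that called 27 of 973 microRNAs. With depth as a covariate in the fit, the log2 fold changes were 0.79 (SE 0.32) for miR-140-5p and -0.73 (SE 0.27) for miR-140-3p (edgeR adjusted p = 0.205 and 0.179). That fit called 0 of all 234 microRNAs. Depth moved with the group, so the fit cannot tell the effects of group and depth apart.

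**Figure D2:**
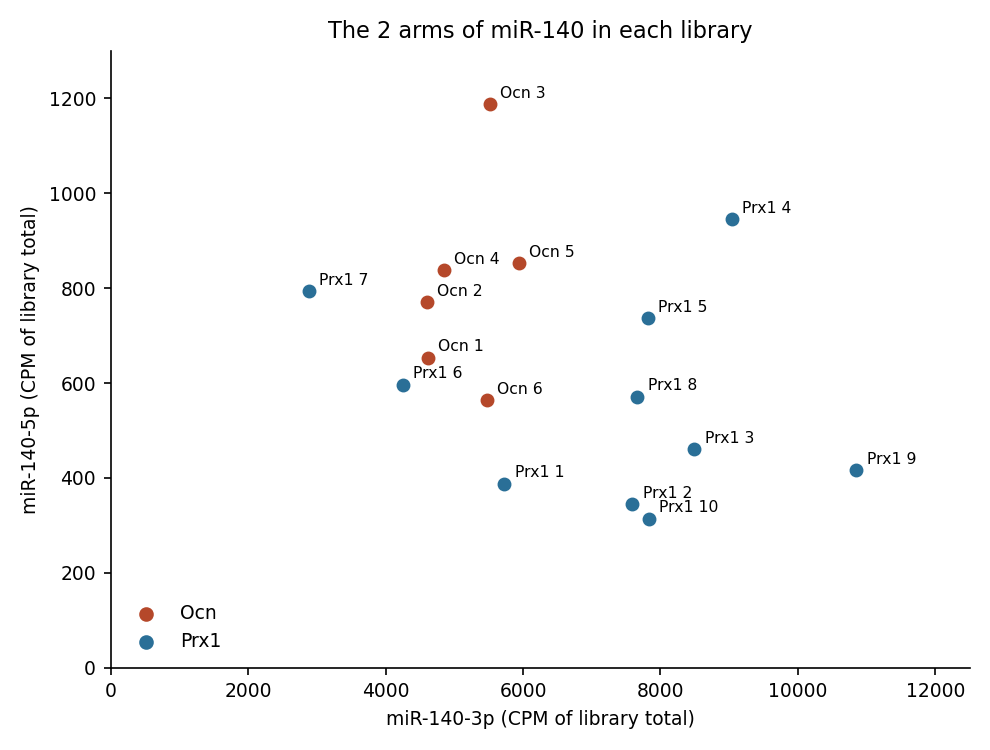
CPM of miR-140-3p (horizontal axis) and of miR-140-5p (vertical axis) in each of the 16 libraries, both as CPM of the library total. The 6 Ocn libraries sit together between 4603 and 5940 CPM of the 3p arm, while Prx1 libraries spread from 2879 to 10852 CPM, with Prx1 6 and Prx1 7 on the low side of the Ocn libraries.

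The arm ratio uses only counts of the same hairpin in the same library, so the library total cancels. In miR-140 the 3p arm outnumbered the 5p arm in all 16 libraries, as in 16 of the 44 hairpins with both arms tested, whereas the 5p arm led throughout in 20. The 5p share of miR-140 counts was 12.4%, 14.3%, 17.7%, 14.7%, 12.5% and 9.35% in Ocn 1 to Ocn 6. In Prx1 it was lowest in Prx1 9 (3.70%), had a median of 6.64% and was highest in Prx1 7 (21.6%). The groups overlapped: 7 of 10 Prx1 libraries were below every Ocn library, Prx1 4 (9.48%) and Prx1 6 (12.3%) were within the Ocn range, and Prx1 7 was above it. The geometric mean of the 3p to 5p ratio was 6.51 in Ocn and 13.0 in Prx1.

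The log2 ratio of 5p to 3p averaged -2.70 ± 0.36 (SD, n = 6) for Ocn and -3.69 ± 0.89 (SD, n = 10) for Prx1. Its difference of 0.99 (SE 0.35) corresponds to a ratio 1.99-fold higher in Ocn and missed the threshold over the 44 hairpins (limma adjusted p = 0.101, unadjusted p = 0.0105), of which 3 passed, or 6.82%, and 18.2% had an unadjusted p under 0.05. An exact 2-sided permutation test of this single ratio gave an unadjusted p of 0.0247. By limma p, miR-140 was the fourth of the 44, after miR-18a, miR-574 and miR-133a, all 3 with a higher 5p to 3p ratio in Ocn as well. The median difference over the 44 hairpins was 0.07, and 25 of them were above 0. In 11 hairpins, miR-140 among them, the log2 fold change was above 0 for the 5p arm and below 0 for the 3p arm, in 8 it was the reverse, and in 25 the arms had the same sign.

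Prx1 7 carried much of the spread of the miR-140 ratio. Without it the difference was 1.20 (SE 0.28, limma adjusted p = 0.00810), which passed, and with any other single library left out it ran between 0.88 and 1.11 and did not pass. The ratio did not separate the groups without Prx1 7 either, since Prx1 4 and Prx1 6 stayed within the Ocn range. Prx1 7 held 393507 counts, of which 312 and 1133 were the 5p and 3p arms of miR-140, so its 5p share has a 95% Wilson interval of 19.5% to 23.8%. That of Prx1 9, at the other end, is 3.33% to 4.10%. These intervals cover counting error alone and take each count as a separate molecule, which the labels do not state. If amplified reads were counted, they are too narrow. On the same assumption, counting alone would give the log2 ratio an SD of 0.06 in Ocn and 0.11 in Prx1. The SD seen between separate libraries was 0.36 and 0.89. Prx1 7 also had the highest summed muscle markers of the Prx1 group (70774 CPM), a value within the Ocn range of 46727 to 77413 CPM. It had 12935 CPM of endothelial markers, where the Prx1 range starts at 12913 CPM. Its erythroid, leukocyte, mesenchymal and liver sums (37631, 46114, 28465 and 219 CPM) were neither the highest nor the lowest of Prx1. The part of these in the result was not tested.

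**Figure D3:**
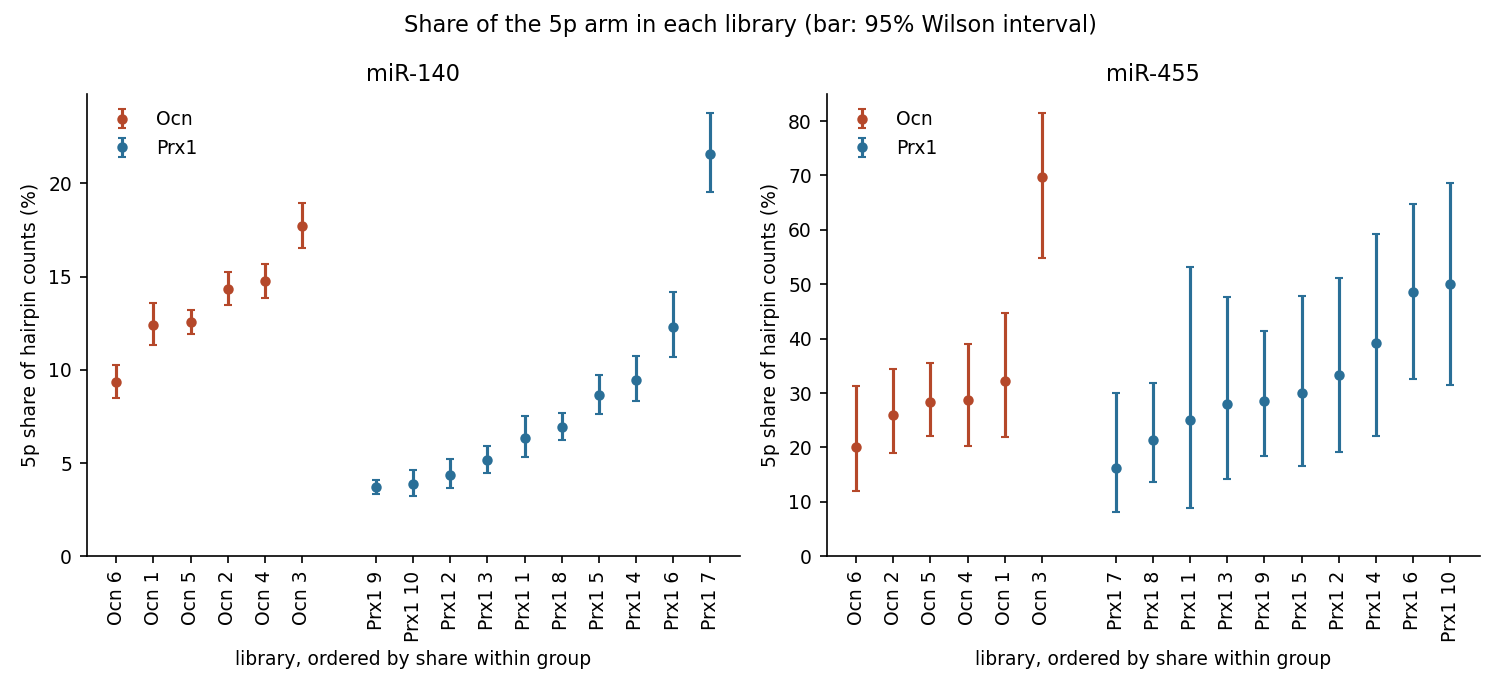
Share of the 5p arm in the counts of each hairpin (vertical axes in percent, starting at 0) for each library, ordered by share within its group; bars are 95% Wilson intervals and cover counting error alone. For miR-140, Prx1 libraries run from 3.70% to 21.6% with narrow intervals, and for miR-455 the intervals are wide and Ocn 3 lies above the other Ocn libraries at 69.8%.

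The arms of miR-455 gave values that the test did not separate between the drivers. miR-455-3p was at 68.1, 80.1, 22.3, 59.0, 80.7 and 76.4 CPM in Ocn 1 to Ocn 6. In Prx1 it ran from 28.6 CPM in Prx1 1 through a median of 60.0 CPM to 98.9 CPM in Prx1 8. Of the 10 Prx1 libraries, 8 lay within the Ocn range, and the low end of that range was set by Ocn 3. The log2 fold change was 0.10 (SE 0.26, 95% interval -0.45 to 0.64, edgeR adjusted p = 0.849), and 0.32 without Ocn 3 (edgeR adjusted p = 0.394). It was 0.31 without Prx1 8, but 0.02 without Prx1 1 and 0.03 without Prx1 10. With depth as a covariate it turned to -0.29 (SE 0.40, edgeR adjusted p = 0.732).

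miR-455-5p was at 32.4, 28.2, 51.5, 23.8, 31.9 and 19.1 CPM in Ocn 1 to Ocn 6 and ran from 9.54 CPM in Prx1 1 through a median of 26.7 CPM to 56.8 CPM in Prx1 6. In this arm Ocn 3 was the highest Ocn library, the opposite of its place in the other arm. The log2 fold change was 0.15 (SE 0.27, 95% interval -0.40 to 0.71, edgeR adjusted p = 0.758). It was 0.61 (SE 0.39, edgeR adjusted p = 0.397) with depth as a covariate, 0.06 without Prx1 1, 0.07 without Ocn 3 and 0.31 without Prx1 6. The intervals of both arms include the 0.50 of miR-140-5p, so counts this low do not show that miR-455 was equal in the groups.

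The 3p arm of miR-455 was ahead of the 5p arm in 14 of 16 libraries. The exceptions were Ocn 3, with 30 counts of 5p and 13 of 3p, and Prx1 10, with 12 of each. The 5p share was 32.3%, 26.0%, 69.8%, 28.7%, 28.3% and 20.0% in Ocn 1 to Ocn 6, and in Prx1 it ran from 16.3% (Prx1 7) through a median of 29.3% to the equal shares of Prx1 10. Prx1 7, the highest of its group for the 5p share of miR-140, was thus the lowest for that of miR-455. The Wilson interval of Ocn 3 was 54.9% to 81.4%, above those of the other 5 Ocn libraries, which lay between 12.1% and 44.6%. The log2 ratio of 5p to 3p averaged -0.99 ± 1.10 (SD, n = 6) for Ocn and -1.10 ± 0.72 (SD, n = 10) for Prx1, a difference of 0.11 (SE 0.40, limma adjusted p = 0.842). Without Ocn 3 the difference was -0.32 (SE 0.32, limma adjusted p = 0.474), and without Prx1 7 it was -0.02. With each count again taken as a separate molecule, counting alone would give an SD of 0.37 in Ocn and 0.59 in Prx1. The SD seen was 1.10 in Ocn and 0.72 in Prx1. With depth as a covariate the difference was 0.98 (SE 0.57, limma adjusted p = 0.523), and that of miR-140 was 1.46 (SE 0.53, limma adjusted p = 0.139). Whether the ratios of miR-140 and miR-455 differ from each other in their response was not tested.

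**Figure D4:**
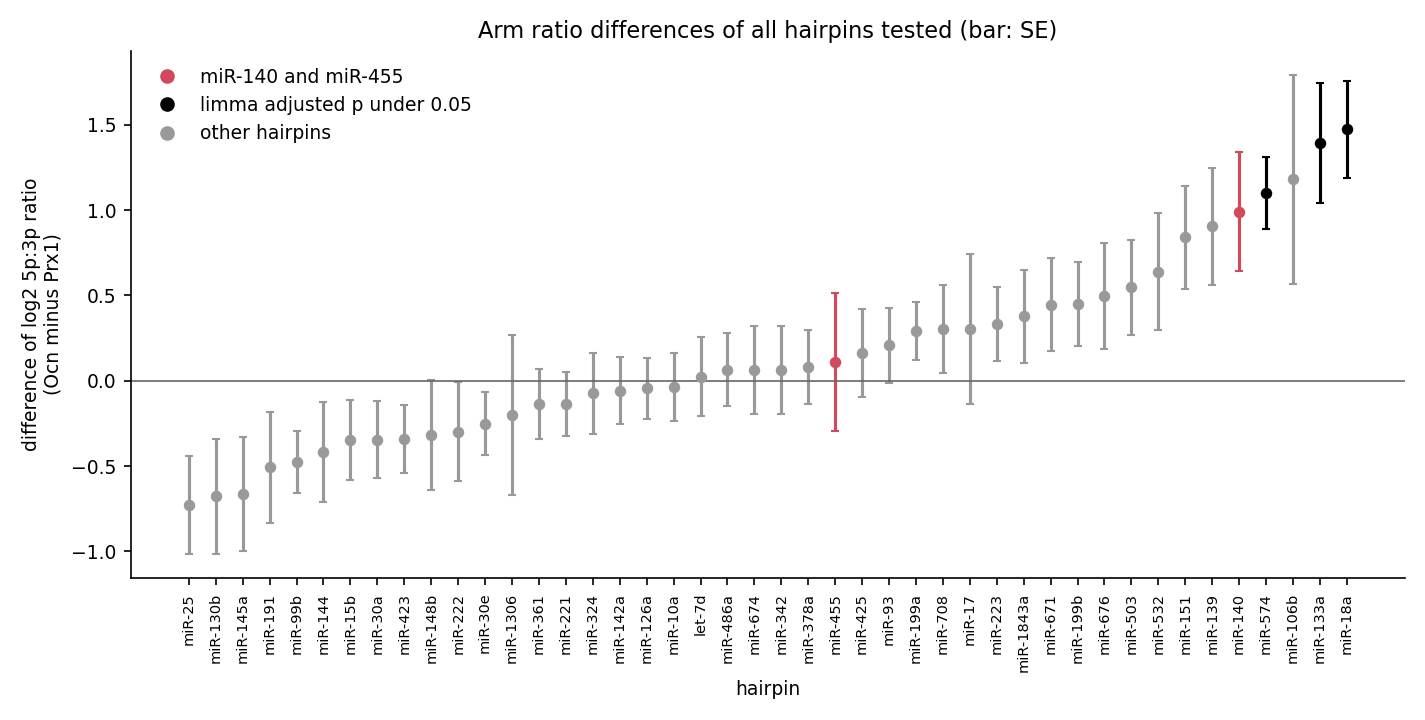
Difference of the log2 5p to 3p ratio between Ocn and Prx1 (vertical axis) for the 44 hairpins tested, in order of size; bars are SE. miR-140 (0.99) lies near the upper end without passing the threshold, next to the called miR-574, and miR-455 (0.11) lies in the middle.

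Summing both arms gives a value per hairpin. miR-140 summed to 5975 ± 655 CPM in Ocn (SD, n = 6; 5266 to 6792) and 7770 ± 2300 CPM in Prx1 (SD, n = 10; 3672 to 11268). The log2 difference was -0.32 (exact permutation p = 0.153, adjusted over 3 tests p = 0.236). The opposite values of the arms thus cancelled only in part, because the 3p arm makes up most of the sum. miR-455 summed to 95.6 ± 14.9 CPM in Ocn (73.8 to 113) and 86.8 ± 27.6 CPM in Prx1 (38.2 to 126), which differ by 0.20 on the log2 scale (exact permutation p = 0.414, also after adjustment). Without Prx1 1, the library with the lowest sum, the miR-455 difference was 0.08. In Ocn 3 the sum was 73.8 CPM, the lowest of its group. Counts of miR-140 exceeded those of miR-455 by 63.7 ± 14.5-fold in Ocn (49.4 to 89.8) and 99.3 ± 44.9-fold in Prx1 (33.2 to 162), and the log2 values differed by -0.50 (exact permutation p = 0.157, after adjustment p = 0.236). The libraries of the groups overlapped in all 3 of these values.

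**Figure D5:**
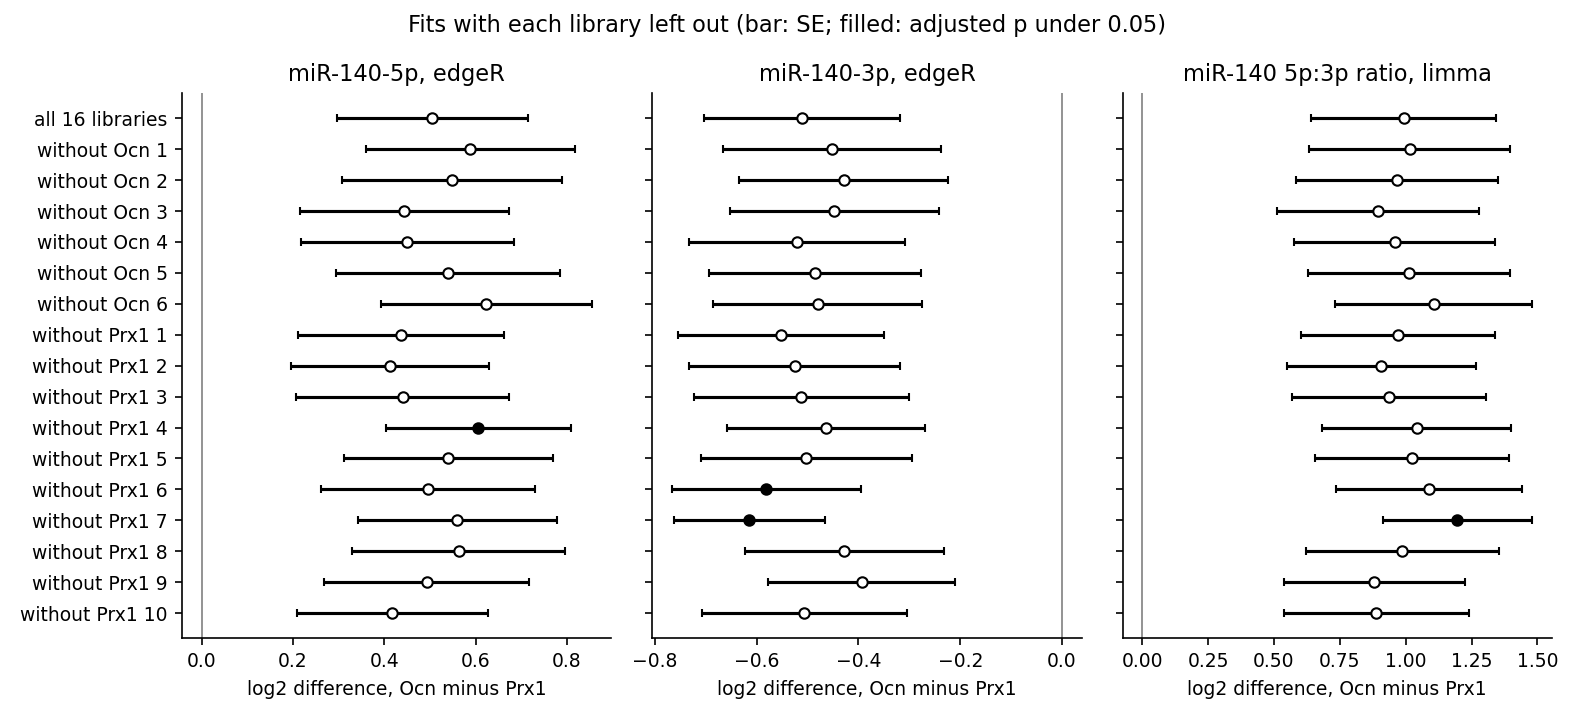
Log2 difference of Ocn minus Prx1 (horizontal axes) with its SE for miR-140-5p, miR-140-3p and the miR-140 arm ratio, for all 16 libraries and with each left out in turn; filled points have an adjusted p under 0.05. The sign is the same in all fits, and the threshold is passed without Prx1 4 for the 5p arm, without Prx1 6 or Prx1 7 for the 3p arm, and without Prx1 7 for the ratio.

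Depth was set against the arm ratio within each group. For miR-140 Pearson's r with the log10 library total was -0.0076 in Ocn (n = 6, exact permutation p = 0.993; Spearman's rho -0.14, exact permutation p = 0.803) and -0.37 in Prx1 (n = 10, permutation p = 0.285; rho -0.44, permutation p = 0.205). For miR-455 it was -0.46 in Ocn (exact permutation p = 0.374; rho -0.60, exact permutation p = 0.242) and -0.45 in Prx1 (permutation p = 0.185; rho -0.52, permutation p = 0.132). Over the 4 relations the smallest adjusted p was 0.498 for r and 0.322 for rho. Without the 2 libraries of most extreme depth, r was 0.75 and 0.018 in Ocn and -0.13 and -0.46 in Prx1, for miR-140 and miR-455 in that order. So few Ocn libraries remain that r there is hardly constrained, and it is not read further.

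The microRNAs whose levels followed each arm most closely were found by Spearman's rho of log2 CPM over the 16 libraries, with the mean of each group removed. These libraries share their preparation and differ in depth, so rho describes them and carries no test. miR-140-5p and miR-140-3p did not follow each other (rho -0.09), nor did miR-455-5p and miR-455-3p (rho -0.10). The largest rho between arms of different hairpins was 0.29, for miR-140-5p and miR-455-3p. miR-140-3p was most like miR-29a-3p, known to restrain collagen genes (rho 0.80), followed by miR-146b-5p (0.80) and miR-708-3p (0.77), where the median over all tested was 0.01. The level of miR-29a-3p was 12624 ± 2063 CPM in the Ocn libraries and 20782 ± 6157 CPM in the Prx1 libraries. Prx1 7 was its lowest Prx1 library (10002 CPM), and Prx1 6 (11856 CPM) lay within the Ocn range of 10238 to 16033 CPM. As miR-29a-3p was picked for its likeness over these same libraries, a shared lowest library is partly built in and is no separate evidence.

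miR-140-5p was most like miR-199a-5p, 1 of the mesenchymal markers (rho 0.86). It was followed by miR-144-3p, 1 of the erythroid markers (0.74), and miR-17-5p (0.73), with a median of -0.05 over all tested. miR-199a-5p was highest in Ocn 3 among the Ocn libraries (1066 CPM) and in Prx1 4 among the Prx1 libraries (648 CPM), the same 2 libraries as for miR-140-5p. miR-144-3p was likewise highest in Ocn 3 (920 CPM) and Prx1 4 (688 CPM), whereas miR-17-5p was highest in Ocn 5 (916 CPM) and Prx1 4 (1465 CPM). All 3 were picked as most like miR-140-5p over these same libraries. Shared highest libraries are therefore partly built in and are no separate evidence. For the arms of miR-455 the highest values were lower, at 0.63 for miR-455-5p (miR-101a-3p, then miR-381-3p at 0.57 and miR-301a-3p at 0.54) and 0.62 for miR-455-3p (miR-106a-5p, then miR-3473e at 0.61 and miR-130a-3p at 0.58). With so few counts these values of rho are not read further.

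Other microRNAs reported in chondrocytes or cartilage were read from the same fit. Of 42 listed, 34 were tested, 7 were below the low-count filter and 1, miR-675-5p, was at 0 in all libraries. Higher in Ocn were 5 (miR-181a-5p, miR-27a-3p, miR-22-3p, miR-27b-3p and miR-199a-5p, with log2 fold changes of 0.61, 0.66, 0.45, 0.36 and 0.43), and 1 was lower, miR-29a-3p (-0.76). In either direction that is 17.6% of those tested, beside 13.7% of the whole table. By direction, 5 of 34 were higher in Ocn, beside 14 of 234 (5.98%), and 1 of 34 was lower, beside 18 of 234 (7.69%). Whether these shares differ was not tested. The median log2 fold change of the 34 was 0.04, beside 0.01 over all tested. Most of these microRNAs are also made by other cells of bone and marrow. The number higher in Ocn was 2 or 3 without any of Prx1 1, Prx1 2, Prx1 3, Prx1 6 or Prx1 10, and 8 without Prx1 8.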

How the data were processed

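Per the labels' protocols, 1 ng of total RNA of each EV sample went into a small RNA library made with the QIAseq miRNA kit. The deposited table holds raw counts per mature microRNA, not normalized by the authors, as judged from its whole numbers and unequal sums. The tool cutadapt 1.18 and the mm10 build are named, per the submitters' processing notes. The aligner, the microRNA annotation, the handling of reads with shifted ends, and whether reads or molecular identifiers were counted are not stated in the labels. The numbers of libraries equal the numbers of mice, but sex, batch and date are not given per library.

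Of the 1915 entries, 973 had counts, and 234, all 4 arms among them, passed filterByExpr (minimum count 10). They were tested with the robust quasi-likelihood fit of edgeR 4.0.16 under R 4.3.3 (TMM scaling, group as the only term, Benjamini-Hochberg adjustment). SE is the log2 fold change divided by the square root of F, and 95% intervals use its degrees of freedom. Arm ratios were log2 of 5p over 3p counts with 0.5 added to each, tested with limma 3.58.1 (robust) over 44 hairpins. Hairpin sums used log2 of CPM plus 1, and exact 2-sided permutation tests used all 8008 arrangements. CPM values use library totals. Fold changes and likeness use TMM-scaled totals. scipy 1.17.1 gave Wilson intervals. The fits were tested on simulated data.

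The members and lists were chosen with earlier results of these data known. The text names the 4 arms, the listed cartilage microRNAs past the threshold, the 3 microRNAs most like each arm, those with the same seed where a RefSeq mature sequence was at hand (1623 of 1915 entries matched by name), and the most abundant marker of each cell type list. The other hairpins named for their ratios, and miR-675-5p, were chosen after their values were seen. Alternatives were DESeq2 1.42.0, limma voom, other scalings and filters, thinning to 225273 counts, a depth covariate, a replicate block and each library left out.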

Additional observations from a re-analysis of the deposited data

Results flagged for a closer look

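Of 18 sets of values examined (9 quantities in 2 groups), 2 held a library far from the others of its group, and chance marks about 1 in 20 such sets. Both concern Ocn 3 and are not independent. Its miR-455-3p value of 22.3 CPM was the lowest of Ocn, and its log2 5p to 3p ratio of miR-455 of 1.18 was the highest.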

How the results depend on the processing

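The signs of both miR-140 arms and of their ratio were the same under every alternative run, while the side of the threshold was not. Without a low-count filter miR-140-5p passed (0.59), so that 1 of the 4 arms was called in place of 0. That fit called 27 of 973 microRNAs in place of 32 of 234. The exact permutation test of the miR-140 ratio (0.99) gave an unadjusted p of 0.0247, which is not read against the adjusted threshold. The unadjusted limma p of the main fit was smaller, at 0.0105. With libraries 1 to 6 of each group alone and no block the miR-140 ratio passed (0.97). The miR-455 ratio turned to -0.062 with those 12 libraries, with or without the block, and miR-455-3p to -0.29 with the depth covariate, which also moved miR-455-5p from 0.15 to 0.61 and the miR-455 ratio from 0.11 to 0.98. The cause of these changes was not tested. With the depth covariate 0 microRNAs were called by edgeR in place of 32 (0 higher, 0 lower, and 0 of the cartilage list in either direction), and 40 had an unadjusted p under 0.05. Upper quartile factors shifted the table's median log2 fold change from 0.01 to 0.13 and turned the 14 higher calls into 26 and the 18 lower calls into 11. The 5 cartilage microRNAs higher in Ocn became 8 with DESeq2, 9 with upper quartile factors, 2 without a filter and 3 after thinning. Without the 2 libraries of most extreme depth, an alternative added after seeing the data, r of depth and arm ratio in Ocn became 0.75 for miR-140 and 0.018 for miR-455.

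With each library left out in turn, the value ran from 0.41 to 0.62 for miR-140-5p, -0.61 to -0.39 for miR-140-3p, 0.88 to 1.20 for the miR-140 ratio and -0.32 to 0.30 for the miR-455 ratio, which was below 0 without Ocn 3 or Prx1 7. It ran from 0.057 to 0.31 for miR-455-5p, 0.017 to 0.32 for miR-455-3p, -0.43 to -0.25 for the miR-140 sum, 0.076 to 0.27 for the miR-455 sum and -0.66 to -0.40 for miR-140 over miR-455. The 4 arms gave 0 or 1 call, beside 24 to 36 calls among all tested microRNAs. Calls higher in Ocn numbered 8 to 20 among all tested (fewest without Prx1 1, Prx1 2 or Prx1 3) and 2 to 8 in the cartilage list.

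Replicate numbers are shared by the groups, but same-numbered libraries correlated in their deviations by only 0.02 to 0.20. Only 1 of 6 Ocn libraries correlated best with its own number, so no pairing by number was seen. Batch and date are not given per library, so this check cannot exclude a weak pairing. The replicate block on 12 libraries gave 0.54 for miR-140-5p, -0.42 for miR-140-3p and 0.97 for the miR-140 ratio (limma adjusted p = 0.0789). Counts of 3 to 16 in Prx1 limit miR-455-5p most. After thinning it fell below the filter, so it and the miR-455 ratio have no thinned value, and the ratio has none with 50 counts required.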

Other observations

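Across the 16 libraries, with group means removed, the 5p to 3p ratio of miR-140 was followed most closely by the ratios of miR-151 (Spearman's rho 0.57), miR-18a (0.57) and miR-361 (0.56), where the median over the other hairpins was 0.01. The ratio difference of miR-151 between the groups was 0.84 (limma adjusted p = 0.101) and that of miR-361 was -0.14 (limma adjusted p = 0.702). These pairs were picked from the data, and rho is given as a description of libraries that share a preparation.

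Ocn 3, in which miR-455-5p outnumbered miR-455-3p, also stood out for miR-101a-3p, with 3743 CPM. The Ocn median was 1454 CPM and Prx1 ran from 1158 to 1667 CPM. miR-101a-3p was picked as most like miR-455-5p over these same libraries, and Ocn 3 was the highest Ocn library for miR-455-5p. A shared high value is therefore partly built in and is no separate evidence.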
